A study of Mus musculus with 70 samples.

Results

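The genes described here are 10 imprinted genes grouped around the zinc finger transcription factor Plagl1, followed across the lungs of 70 female B6C3F1 mice: Plagl1, H19, Igf2, Dlk1, Meg3, Peg3, Mest, Cdkn1c, Grb10 and Ndn. They were chosen by name with earlier results of these data in view, so the tests below give no independent support for the list. For each gene the probe set was selected on its mean log2 signal over all arrays, the highest being kept, so a high mean level is a consequence of the choice. Of the 10, 9 had a probe set of their own and 8 lay above a filter on low signals (a mean log2 signal over 4.98, the 30th percentile of genes), out of 12735 genes tested in all. H19 has no value here, because the probe set that lists it lists the microRNA gene Mir675 as well. Dlk1, at a mean of 4.49, lay below the filter, and its values come from a fit without that filter.

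The study exposed mice for 13 weeks to 1 of 13 chemicals, 7 of them positive and 6 negative for lung tumours in the design text, and measured RNA of the right lung lobe at 18 weeks of age on Affymetrix mouse expression arrays. Each animal's identifier opens with a 1 or a 2, called here its set, a number the labels do not explain. Set 1 held feed controls (n = 3), corn oil gavage controls (n = 3) and groups of 3 given 1,5-naphthalenediamine (2000 ppm), N-(1-naphthyl)ethylenediamine dihydrochloride (2000 ppm) or pentachloronitrobenzene (8187 ppm) in feed, or 2,3-benzofuran (240 mg/kg) in corn oil. Set 2 held feed controls (n = 4), corn oil controls (n = 8) and water gavage controls (n = 4). Its treated groups of 4 received in feed 2,2-bis(bromomethyl)-1,3-propanediol (dose 1250 ppm), 4-nitroanthranilic acid (10000 ppm), malathion (16000 ppm) or diazinon (200 ppm), or 1,2-dibromoethane (62 mg/kg), coumarin (200 mg/kg) or benzene (100 mg/kg) in corn oil, or N-methylolacrylamide (50 mg/kg) or 2-chloromethylpyridine hydrochloride (250 mg/kg) in water. All animals, controls included, were of the same hybrid strain, sex and age, and each array held 1 animal. Gavage was on 5 days a week and feed on 7, so comparisons of gavage with feed controls also differ in dosing days. The labels also give each array a core amount, 10 throughout set 1 and 15 in every gavage group of set 2. Feed controls of set 2 had 2 arrays at each amount. Between corn oil controls, set and core amount cannot be told apart. The animals of a group are separate mice, so the error given is the spread between mice together with that of the array. It was estimated from all 18 groups together, not from the groups compared alone.

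Imprinted genes are transcribed mainly from the copy inherited from 1 parent, and many of them set the pace of fetal growth. Plagl1, also called Zac1, is expressed from the paternal copy, arrests the cell cycle when overexpressed, and has been described as a hub of a network of imprinted genes that includes the other genes here. Most of the network is abundant in fetal tissues and declines after birth, so an adult lung offers a late view of it. Mean log2 signals of the genes here ran from 4.49 for Dlk1 to 9.91 for Plagl1. The deposited signals add up both parental copies and do not tell them apart.

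The 250 bases before the transcription start are shown for the 3 genes that the results turn on most, Plagl1 and Peg3, whose group means correlated at 0.81 over the 18 groups and at 0.25 over the 12 of set 2, and Mest, which changed with benzene. The sequences are RefSeq's on GRCm38.p6, 5' to 3' on the strand of the gene, with CG dinucleotides, the sites of imprint methylation, in capitals.

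Plagl1, chr10:13090582-13090831, plus strand: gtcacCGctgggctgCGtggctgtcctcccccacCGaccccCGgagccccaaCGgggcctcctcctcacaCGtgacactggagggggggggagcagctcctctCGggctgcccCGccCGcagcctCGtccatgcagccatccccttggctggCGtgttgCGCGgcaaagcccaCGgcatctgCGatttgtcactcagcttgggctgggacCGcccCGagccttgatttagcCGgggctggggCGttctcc

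Mest, chr6:30737800-30738049, plus strand, 1 of 3 starts listed: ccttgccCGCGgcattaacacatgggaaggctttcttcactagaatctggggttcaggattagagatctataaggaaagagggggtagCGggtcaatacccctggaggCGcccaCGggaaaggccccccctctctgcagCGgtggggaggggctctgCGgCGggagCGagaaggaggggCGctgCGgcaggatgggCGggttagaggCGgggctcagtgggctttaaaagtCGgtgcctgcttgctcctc

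Peg3, chr7:6730420-6730669, minus strand: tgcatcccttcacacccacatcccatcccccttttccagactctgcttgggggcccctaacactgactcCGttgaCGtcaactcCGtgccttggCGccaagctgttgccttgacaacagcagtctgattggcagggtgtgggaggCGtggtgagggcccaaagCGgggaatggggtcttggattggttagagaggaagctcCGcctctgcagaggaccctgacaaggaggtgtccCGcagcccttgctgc

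The Plagl1 window held 19 CG dinucleotides, more than 80.3% of the 32851 promoter windows of the same length, whose median was 6. The Mest window held 14, but of the 3 starts listed it was chosen for having the most, and another start had 7. The Peg3 window held 8. The palindrome GGGGCCCC, a motif described for binding of Plagl1, reads the same on both strands and was found in the Peg3 window, beginning 201 bases before the start. It was in none of the other windows of the 8 matched genes, and in 0.889% of all windows. No methylation or binding was measured here, so these letters are a description only. Promoters of 8 of the 10 genes were matched by symbol; H19 and Cdkn1c were not.

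Before the results, the arrays themselves were examined. Defining lung genes were at the top of the signal range on every array, with the surfactant gene Sftpc between 14.23 and 14.45, the club cell gene Scgb1a1 between 13.95 and 14.37 and the type I cell gene Ager between 13.69 and 14.31. Genes of neighbouring tissues varied widely, with the heart muscle gene Myh6 between 5.25 and 11.38, the fat gene Adipoq between 3.10 and 10.02 and the liver gene Alb between 5.02 and 12.28. The first principal component of the 12735 genes took 57.0% of the variance and held the sets apart, with group means of -49.9 to -41.4 in set 1 and 0.36 to 45.1 in set 2, highest in the water controls. Within groups, the leading axis of variation took 27.9% of the remaining variance, and 41.0% of genes had an absolute correlation with it over 0.5. In whole lobes, fewer cells of a type and less RNA per cell cannot be told apart.

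Plagl1, the transcription factor that gives the group its name, was higher in set 1 than in set 2 and differed more between groups than any other gene listed here. In set 1 the 18 animals lay between 10.45 and 11.29 (median 11.10), and the 6 group means lay between 10.95 and 11.19. In set 2 the 52 animals lay between 7.80 and 10.81 (median 9.60). Only 1 animal of set 1, at 10.45 in the 2,3-benzofuran group, lay below the highest animals of set 2, and the other 17 lay above all 52. The spread within groups also differed, with an SD of 0.21 within the groups of set 1 and 0.57 within those of set 2.

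Among feed controls Plagl1 stood at 10.88, 11.16 and 11.08 in set 1 and at 10.47, 8.82, 8.99 and 9.58 in set 2, with no overlap, as for 52.5% of all genes. The difference, set 2 minus set 1, was -1.58 ± 0.38 (SE) on the log2 scale, a 2.99-fold lower signal (limma, Benjamini-Hochberg adjusted p = 0.000731). Among corn oil controls Plagl1 stood at 11.05 to 11.20 in the 3 animals of set 1 and between 8.49 and 10.81 (median 9.65) in the 8 animals of set 2. That difference was -1.28 ± 0.34 (adjusted p = 0.000991). The sets differed for much of the genome, since 46.9% of genes were called between feed controls and 60.5% between corn oil controls, and the 2 and 4 of the 8 tested genes called here are no larger a share. The median change of all genes was 0.17 in both comparisons. Liver markers moved with the sets, 7 of 9 tested being higher in set 2 between feed controls (mean levels 6.55 to 8.29 against 4.74 to 4.94) and 6 of 9 between corn oil controls, and their part in the results was not tested. With the RNA integrity number as a covariate the Plagl1 change between feed controls was -1.16 (adjusted p = 0.0616). With the leading axis of variation among animals within groups (the within-group axis) as a covariate, a setting added after the data were seen, it was -0.25 (adjusted p = 0.521), and the change between corn oil controls turned to 0.39 (adjusted p = 0.289).

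Within set 2 the water controls were the lowest group for Plagl1, at 8.25, 7.80, 8.28 and 8.96. The order of the 18 groups ran from N-(1-naphthyl)ethylenediamine (11.19) through the other groups of set 1 to N-methylolacrylamide (10.22), coumarin (10.03), benzene (9.90) and corn oil controls (9.86) at the top of set 2, and to 2,2-bis(bromomethyl)-1,3-propanediol (8.95) and water controls (8.32) at its foot. None of the 17 differences between neighbours in this order had a 95% interval above 0. Water controls were below feed controls by 1.14 ± 0.35 (change -1.14, adjusted p = 0.0087; 0.13 with the within-group axis as a covariate), although the lowest feed control at 8.82 lay below the highest water control at 8.96. Without water control 2-124 that change was -0.97 (adjusted p = 0.052), and without feed control 2-42 it was -0.81 (adjusted p = 0.0954). Corn oil controls were above water controls by 1.55 ± 0.30 (adjusted p = 0.00040), but in a fit of those arrays alone the adjusted p was 0.0999. Of 13 endothelial markers 8 were higher and 2 lower in water than in feed controls (mean levels 10.23 to 10.44 against 10.05 to 10.29), and of 11 smooth muscle and pericyte markers 5 were higher and 1 lower (8.63 to 9.11 against 8.17 to 8.95). Mean levels of type I markers did not overlap, at 11.317 to 11.425 in water and 11.515 to 11.696 in feed controls. Nor did those of type II markers (12.669 to 12.835 and 12.549 to 12.625) or alveolar macrophage markers (9.12 to 9.47 and 9.60 to 9.83). The part of all these markers in the Plagl1 difference was not tested. Again many genes were called, 37% of them between water and feed controls and 26% between corn oil and water controls.

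With N-methylolacrylamide, an acrylamide derivative used in resins, Plagl1 rose and Cdkn1c fell. Plagl1 stood at 10.00, 10.42, 10.31 and 10.16 in the treated animals and at 8.25, 7.80, 8.28 and 8.96 in the water controls, with every treated animal above every control, and 18.8% of all genes did not overlap. The change was 1.90 ± 0.35 (SE, n = 4 and 4), a 3.74-fold higher signal (adjusted p = 0.0013). Cdkn1c encodes p57Kip2, a maternally expressed inhibitor of cyclin-dependent kinases. It stood at 8.41, 8.40, 8.10 and 8.67 against 8.86, 9.22, 8.65 and 8.86 in the controls, so 1 treated animal lay above the lowest control. The change was -0.50 ± 0.16, a 1.42-fold lower signal (adjusted p = 0.0252). In this comparison 21.8% of all genes were called, against 2 of the 8 genes here, a share near the background.

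The treated mean of 10.22 stands beside 8.32 in the water controls, 9.46 in the feed controls and 9.86 in the corn oil controls of the same set, and the 4 treated animals lay within the range of the corn oil controls, 8.49 to 10.81. The first principal component moved with it, at a mean of 45.1 in the water controls and 7.65 in the treated animals. With the within-group axis as a covariate, a setting added after the data were seen, the change was 0.80 (adjusted p = 0.331) for Plagl1 and -0.13 (adjusted p = 0.918) for Cdkn1c. Without animal 2-124 of the water controls the Cdkn1c change was -0.39 (adjusted p = 0.148), and without animals 2-102 and 2-106 of the treated group in turn its adjusted p was 0.0608 and 0.115. The Plagl1 call held without each of the 8 animals in turn (change 1.73 to 2.11).

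Counts of markers of other cell types stand beside the 21.8% of all genes called in this comparison. Of 13 endothelial markers 3 rose, and their mean level lay between 10.27 and 10.39 in the treated animals and between 10.23 and 10.44 in the controls. Of 11 smooth muscle and pericyte markers 1 rose, with mean levels of 8.30 to 8.98 and 8.63 to 9.11. Of 16 fibroblast markers 3 rose and none fell (mean levels 10.22 to 10.55 against 10.16 to 10.26). Of 5 tested fat cell markers 1 fell. Of 7 type I cell markers 2 rose. Mean levels of the type I list did not overlap, at 11.487 to 11.578 in the treated animals and 11.317 to 11.425 in the controls. None of 8 tested heart muscle markers was called, though their median change was -0.85 (mean levels 7.41 to 10.01 against 8.77 to 9.97). Their part in the changes of Plagl1 and Cdkn1c was not tested.

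The other water gavage chemical, 2-chloromethylpyridine hydrochloride, gave Plagl1 levels of 8.86, 8.80, 8.79 and 10.25, so that 1 animal stood far above the other 3. Its change against the same water controls was 0.85 ± 0.35 (adjusted p = 0.334), and none of the 8 genes passed. No gene at all was called there (0%), while 1641 genes and 3 of the 8 had an unadjusted p under 0.05.

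**Figure D1:**
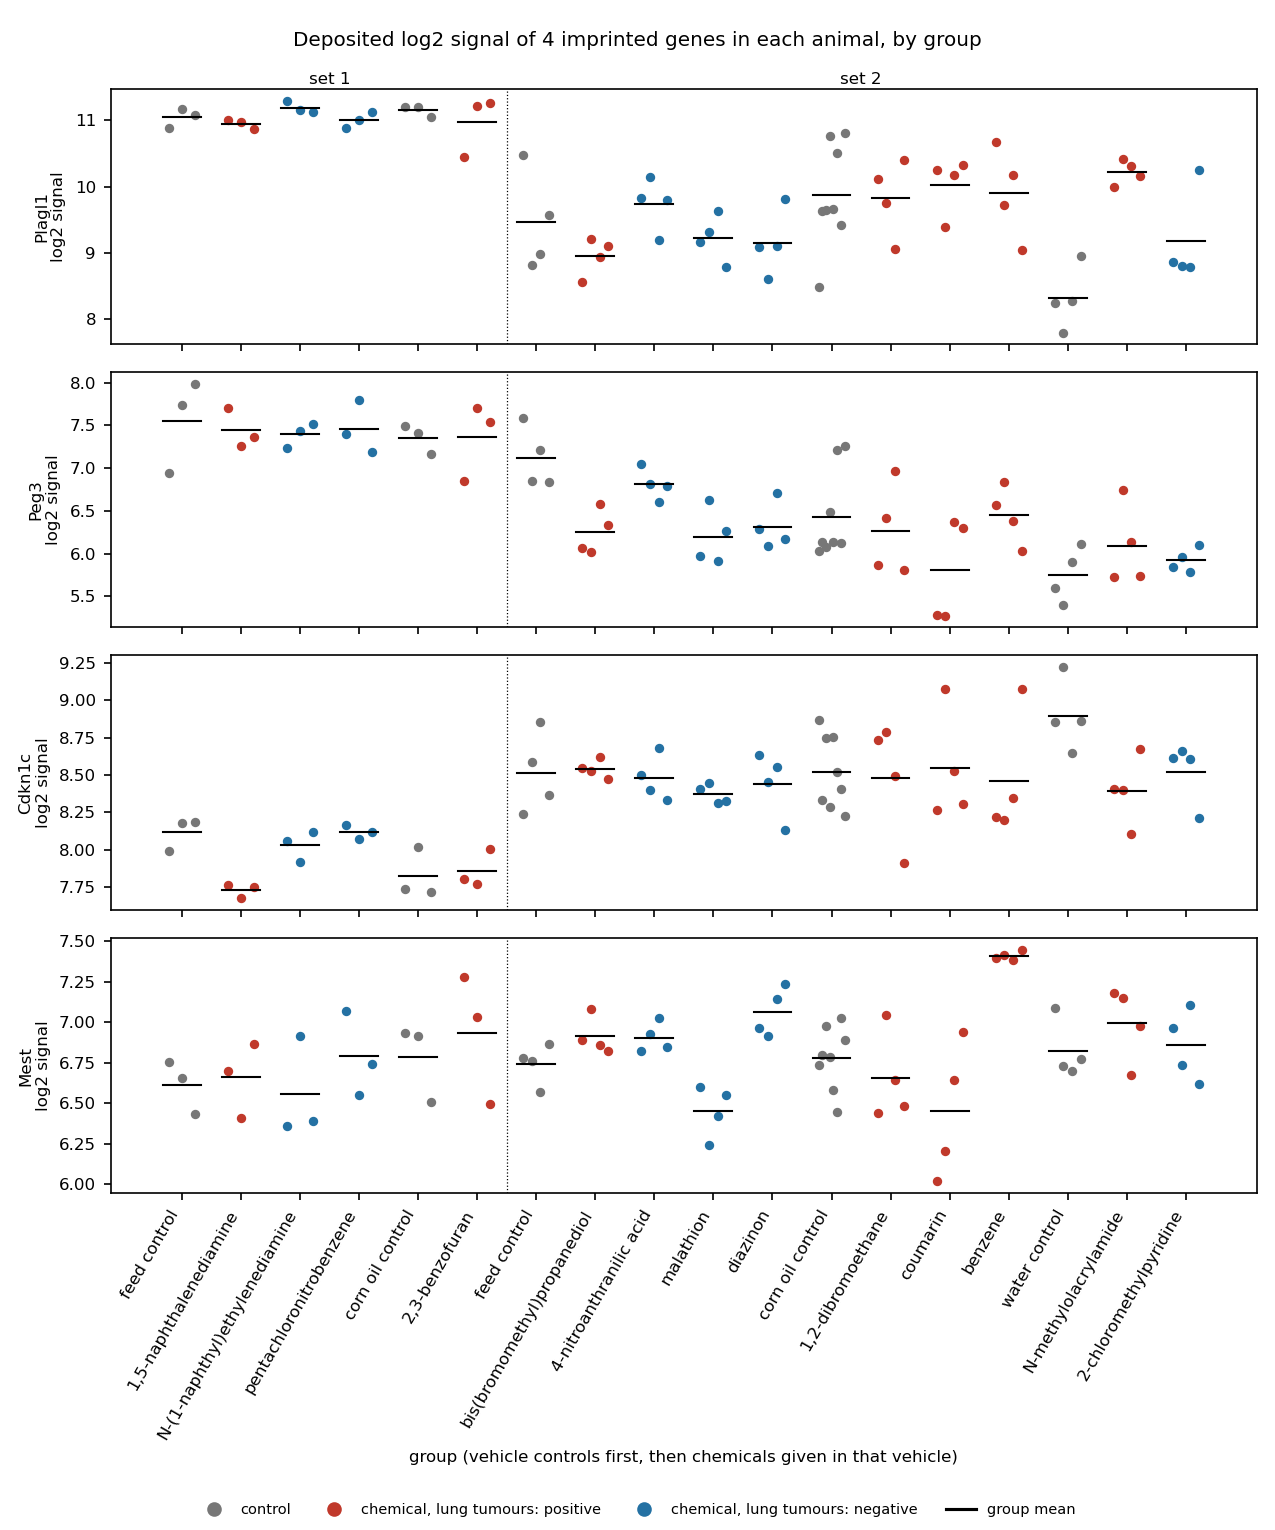
Log2 signal of Plagl1, Peg3, Cdkn1c and Mest (one panel each, vertical axis) in each of the 70 animals (dots), by group (horizontal axis), with the group mean as a bar and colours for controls and for chemicals positive or negative for lung tumours. Plagl1 lies between 10.45 and 11.29 in set 1 and falls to 7.80 in a water control, Cdkn1c lies between 7.68 and 8.19 in set 1 and has its highest group mean in the water controls, and the 4 benzene animals lie together at the top of the Mest panel.

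A second probe set for Plagl1 gave the same direction with smaller differences. Probe set 1426208_x_at was the one chosen, and the suffix x marks probes that can also match other transcripts. Probe set 1450533_a_at (mean 5.14) correlated with it at r = 0.73 over the deviations of 70 animals from their group means and at r = 0.91 over the 18 group means, which share their arrays. Its changes were -0.70 between feed controls of the sets, -0.96 between corn oil controls, 0.48 from water to corn oil controls, -0.17 from feed to water controls and 0.60 with N-methylolacrylamide (adjusted p = 0.0802 over all probe sets). The remaining probe set, 1438588_at, lay below the filter at 4.70. Its r with the chosen one was -0.05 within groups and -0.58 over the 18 group means. It changed by -0.32 from water to corn oil controls, against the direction of the chosen one.

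**Figure D2:**
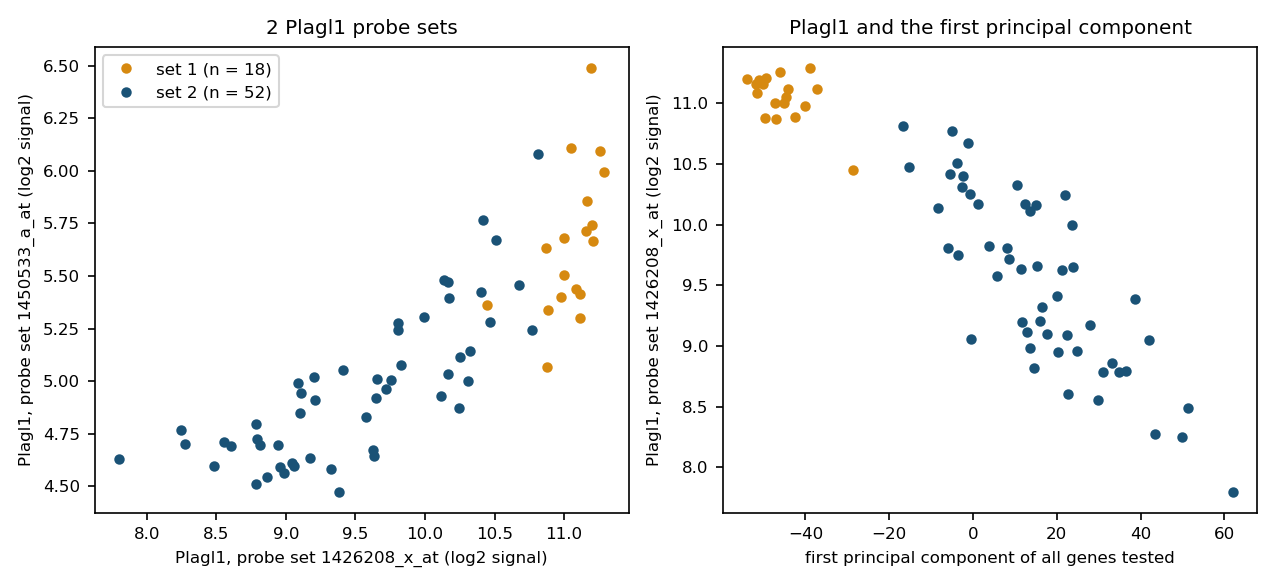
Left, log2 signal of Plagl1 probe set 1450533_a_at against the chosen probe set 1426208_x_at in each animal; right, the chosen probe set against the first principal component of all genes tested, with set 1 (18 animals) and set 2 (52 animals) in different colours. The probe sets rise together, and Plagl1 is lower where the first principal component is higher (r = -0.91 over 70 animals).

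Peg3, a paternally expressed zinc finger gene that affects growth and maternal behaviour in mice, was also lower in set 2, but with more overlap than Plagl1. The 18 animals of set 1 lay between 6.84 and 7.98 and the 52 of set 2 between 5.28 and 7.58, and 7 animals of set 2 lay above the lowest of set 1. Only 5 animals of set 1 lay above all of set 2, against 17 for Plagl1. Corn oil controls of set 2 were lower than those of set 1 by 0.92 ± 0.25 (change -0.92, adjusted p = 0.0018; 0.11 with the within-group axis as a covariate), and the change between feed controls was -0.43 ± 0.29 (adjusted p = 0.212). Water controls stood at 5.60, 5.39, 5.90 and 6.12 and feed controls at 7.58, 6.85, 7.22 and 6.84, without overlap. That change was -1.37 ± 0.27, a 2.59-fold lower signal (adjusted p = 0.00014), and 30.8% of all genes did not overlap there. With the within-group axis as a covariate, a setting added after the data were seen, it was -0.59 (adjusted p = 0.149). Corn oil controls were above water controls by 0.68 ± 0.23 (adjusted p = 0.0259), where a second Peg3 probe set changed by -0.01. That call was lost without water control 2-121 (adjusted p = 0.0798) or 2-124 (0.143), or without corn oil control 2-95 (0.0666) or 2-99 (0.0748), with changes of 0.56 to 0.63.

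With malathion, an organophosphate insecticide, Peg3 fell. The treated animals stood at 5.97, 6.62, 5.92 and 6.26, each below each of the 4 feed controls. The change was -0.93 ± 0.27, a 1.90-fold lower signal (adjusted p = 0.0424), in a comparison where 2.66% of genes were called and 15.9% did not overlap. It sat at the edge of the threshold. Without feed control 2-42 the change was -0.78 (adjusted p = 0.211), and without feed control 2-44 or malathion animals 2-33, 2-38 or 2-39 the adjusted p lay between 0.0964 and 0.126. Of 2 other Peg3 probe sets above the filter, 1417355_at changed by -0.92 and 1417356_at by -0.02, and the mean over all Peg3 probe sets by -0.37 (adjusted p = 0.134). Of 8 tested lymphocyte markers 2 rose with malathion (mean levels 7.04 to 7.32 against 6.49 to 6.87) and of 6 club cell markers 3 fell (12.90 to 13.38 against 12.79 to 13.75), and their part in the Peg3 change was not tested.

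Diazinon, another organophosphate, and 2,2-bis(bromomethyl)-1,3-propanediol gave Peg3 levels that also lay wholly below the same feed controls. Diazinon animals stood at 6.28, 6.09, 6.71 and 6.18 (change -0.81 ± 0.27, adjusted p = 0.848). The 2,2-bis(bromomethyl)-1,3-propanediol animals stood at 6.07, 6.02, 6.58 and 6.33 (change -0.87 ± 0.27, adjusted p = 0.284). Neither passed, and 0% of genes were called in either comparison, with 650 and 1485 genes at an unadjusted p under 0.05 and 2 and 1 of the 8. Of all genes, 4.88% did not overlap with diazinon and 16.8% with 2,2-bis(bromomethyl)-1,3-propanediol. These comparisons and that of malathion share their controls, whose Peg3 mean of 7.12 was the highest in set 2. Coumarin gave 5.29, 5.28, 6.38 and 6.30 (change -0.62 ± 0.23, adjusted p = 0.113).

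The group means of Cdkn1c were lower in set 1, where those of Plagl1 were higher, and the group means of both correlated at -0.88 over the 18 groups and at -0.65 over those of set 2. It lay between 7.68 and 8.19 in set 1 and between 7.91 and 9.22 in set 2, where 3 of 52 animals lay below the highest of set 1. Corn oil controls of set 2 exceeded those of set 1 by 0.70 ± 0.16 (adjusted p = 0.00018), with the 3 animals of set 1 at 7.74, 8.02 and 7.72 and the 8 of set 2 between 8.23 and 8.87. Feed controls did not overlap between the sets either (7.99, 8.18 and 8.19 against 8.24, 8.59, 8.85 and 8.37), with a change of 0.39 ± 0.18 (adjusted p = 0.064), in a comparison where 52.5% of all genes did not overlap. Water controls were the highest group at 8.90, above coumarin, the next group, by 0.35 (95% interval 0.02 to 0.68). Of the 17 differences between neighbours in the order of Cdkn1c means, only 1, this one, had an interval above 0. The order was taken from the same means, and the interval is not corrected for that choice. Corn oil controls were lower than water controls by 0.38 ± 0.14 (change -0.38, adjusted p = 0.0425), a call lost without any of water controls 2-121, 2-124 and 2-129 or corn oil controls 2-134, 2-60, 2-95, 2-97 and 2-99 (adjusted p up to 0.25). With 1,5-naphthalenediamine the animals stood at 7.77, 7.68 and 7.75, wholly below the feed controls of set 1 (change -0.39 ± 0.19, adjusted p = 0.509), a comparison with 1.2% of genes called and 21.2% without overlap.

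Mest was the exception among the genes that changed, since its levels did not follow the sets (median 6.72 in set 1 and 6.83 in set 2). It is a paternally expressed gene whose product belongs to the alpha/beta hydrolase family and which marks expanding fat tissue. With benzene, a leukaemogenic solvent, Mest rose. The 4 treated animals stood at 7.40, 7.42, 7.38 and 7.45, the highest group of the 18, and the 8 corn oil controls lay between 6.44 and 7.03 (median 6.79). The change was 0.63 ± 0.14 (SE, n = 4 and 8), a 1.55-fold higher signal (adjusted p = 0.0275). Only 12 genes (0.0942%) were called with benzene, Mest among them as 1 of the 8 genes here. The genes were chosen with earlier results of these data in view, so this share gives no support for the list. Mest has 1 probe set, so no other could be set beside it.

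The size of the Mest change was steadier than its adjusted p. Across 24 alternative settings the change lay between 0.56 and 0.67. It missed the threshold in 11 of them, including each fit without 1 of the 4 benzene animals (adjusted p 0.085 for 2-82, 0.138 for 2-85, 0.135 for 2-86 and 0.155 for 2-90) and without corn oil controls 2-134, 2-60, 2-93 or 2-95 (0.057 to 0.0881). The spread among the 4 treated animals, an SD of 0.03, was smaller than the SD of 0.22 within groups over all 18 groups. No marker list had a gene called with benzene. The median change of 8 heart muscle markers was -1.02 and of 5 fat cell markers -0.30, with mean fat marker levels of 6.19 to 8.42 in treated animals and 6.40 to 8.47 in controls, and none of the 8 and none of the 5 passed (12 genes of 12735 did).

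Mest also stood apart in diazinon animals, at 6.96, 6.92, 7.14 and 7.23 against 6.78, 6.76, 6.57 and 6.86 in feed controls, without overlap (change 0.32 ± 0.16, adjusted p = 0.848; 4.88% of all genes did not overlap). Malathion and coumarin gave changes of -0.29 ± 0.16 (adjusted p = 0.301) and -0.33 ± 0.14 (adjusted p = 0.166). Over all 13 chemicals together, limma's moderated F test called Mest (adjusted p = 0.00077) and Plagl1 (adjusted p = 0.0325), 2 of the 8, where 16.2% of genes were called.

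**Figure D3:**
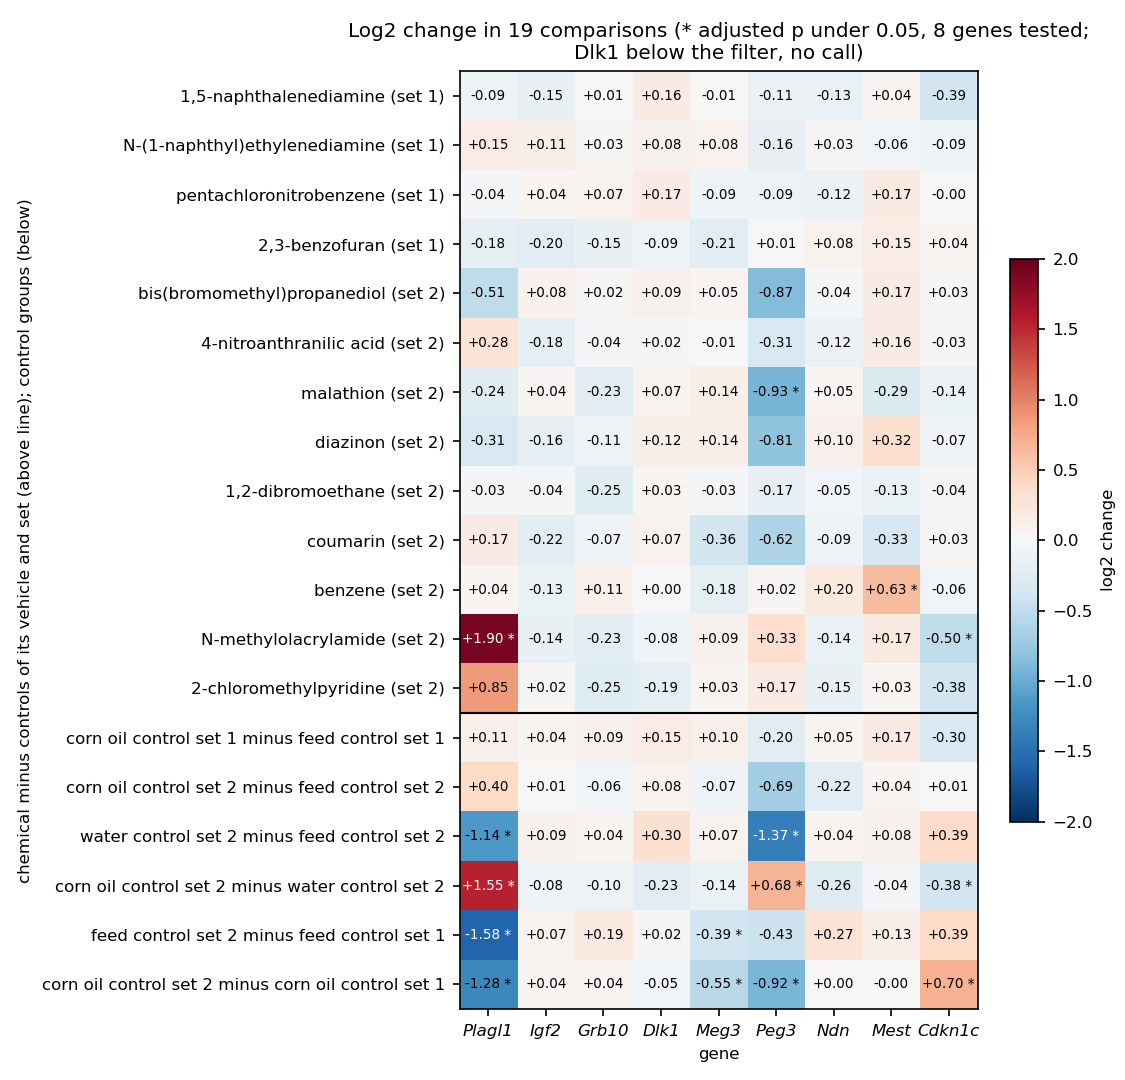
Log2 change of 9 genes (columns) in 13 comparisons of a chemical with the controls of its vehicle and set and in 6 comparisons between control groups (rows), coloured from -2 to 2, with a star where the adjusted p is under 0.05 for the 8 genes above the filter. Stars stand in 4 cells of the chemical comparisons and in 11 cells of the control comparisons.

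The growth signal genes Igf2 and Grb10 moved little in their chosen probe sets. Igf2, a paternally expressed fetal growth factor, lay between 6.72 and 7.40 in all 70 animals. Its changes ran from -0.22 ± 0.09 with coumarin to 0.11 ± 0.12 with N-(1-naphthyl)ethylenediamine, and the lowest adjusted p was 0.178. Grb10, an adaptor that restrains insulin and insulin-like growth factor receptors, lay between 8.77 and 9.59, with changes from -0.25 ± 0.10 with 2-chloromethylpyridine to 0.11 ± 0.09 with benzene. Its change with 1,2-dibromoethane was also -0.25 ± 0.09 (adjusted p = 0.0819), and 4 of 13 chemicals gave Grb10 an unadjusted p under 0.05, all with lower levels. Other probe sets followed the chosen ones weakly. For Igf2, 1415931_at lay below the filter at 3.48 and had r = -0.02 with the chosen one within groups. For Grb10, 1430164_a_at and 1425457_a_at lay above the filter and had r = 0.21 and 0.23 within groups.

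The paternally expressed growth suppressor Ndn ran between 7.89 and 8.95, with changes of -0.15 ± 0.14 to 0.20 ± 0.12 and no unadjusted p under 0.05 for any chemical. It did not overlap between the feed controls of the sets (8.39, 8.20 and 8.36 in set 1 and 8.56, 8.54, 8.72 and 8.54 in set 2; change 0.27 ± 0.15, adjusted p = 0.124), as 52.5% of all genes did not. Of its 8 probe sets, 5 lay above the filter, and the other 4 of these correlated with the chosen one at r = 0.79 to 0.91 within groups.

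Dlk1 and Meg3 share an imprinted cluster, Dlk1 encoding a transmembrane protein related to Notch ligands and Meg3 a maternally expressed non-coding RNA. Meg3 was lower in set 2 than in set 1, by 0.39 ± 0.16 between feed controls (change -0.39, adjusted p = 0.0446) and by 0.55 ± 0.14 between corn oil controls (change -0.55, adjusted p = 0.00095), without overlap in either, as for 52.5% and 36% of all genes. Feed controls stood at 7.89, 7.56 and 7.69 in set 1 and at 7.29, 7.55, 7.16 and 7.31 in set 2. The feed call was lost without any of controls 1-27, 1-29, 2-42, 2-44 and 2-45 (adjusted p 0.0691 to 0.184). The Meg3 probe sets disagreed. Of 8 others above the filter, 6 had the same sign between feed controls and 3 between corn oil controls, and the mean over all 11 changed by -0.13 (adjusted p = 0.153) and -0.09 (adjusted p = 0.249). With coumarin Meg3 stood at its lowest group mean, 6.90 (change -0.36 ± 0.13, adjusted p = 0.0977, with 4.68% of genes called). Dlk1 lay between 4.21 and 5.00. Without the filter its change between water and feed controls was 0.30 ± 0.10 (adjusted p = 0.0219; 4.53, 5.00, 4.62 and 4.61 against 4.44, 4.42, 4.34 and 4.36), and with 1,5-naphthalenediamine the animals at 4.52, 4.54 and 4.54 lay above the feed controls at 4.33, 4.30 and 4.49 (change 0.16 ± 0.12, adjusted p = 0.866).

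**Figure D4:**
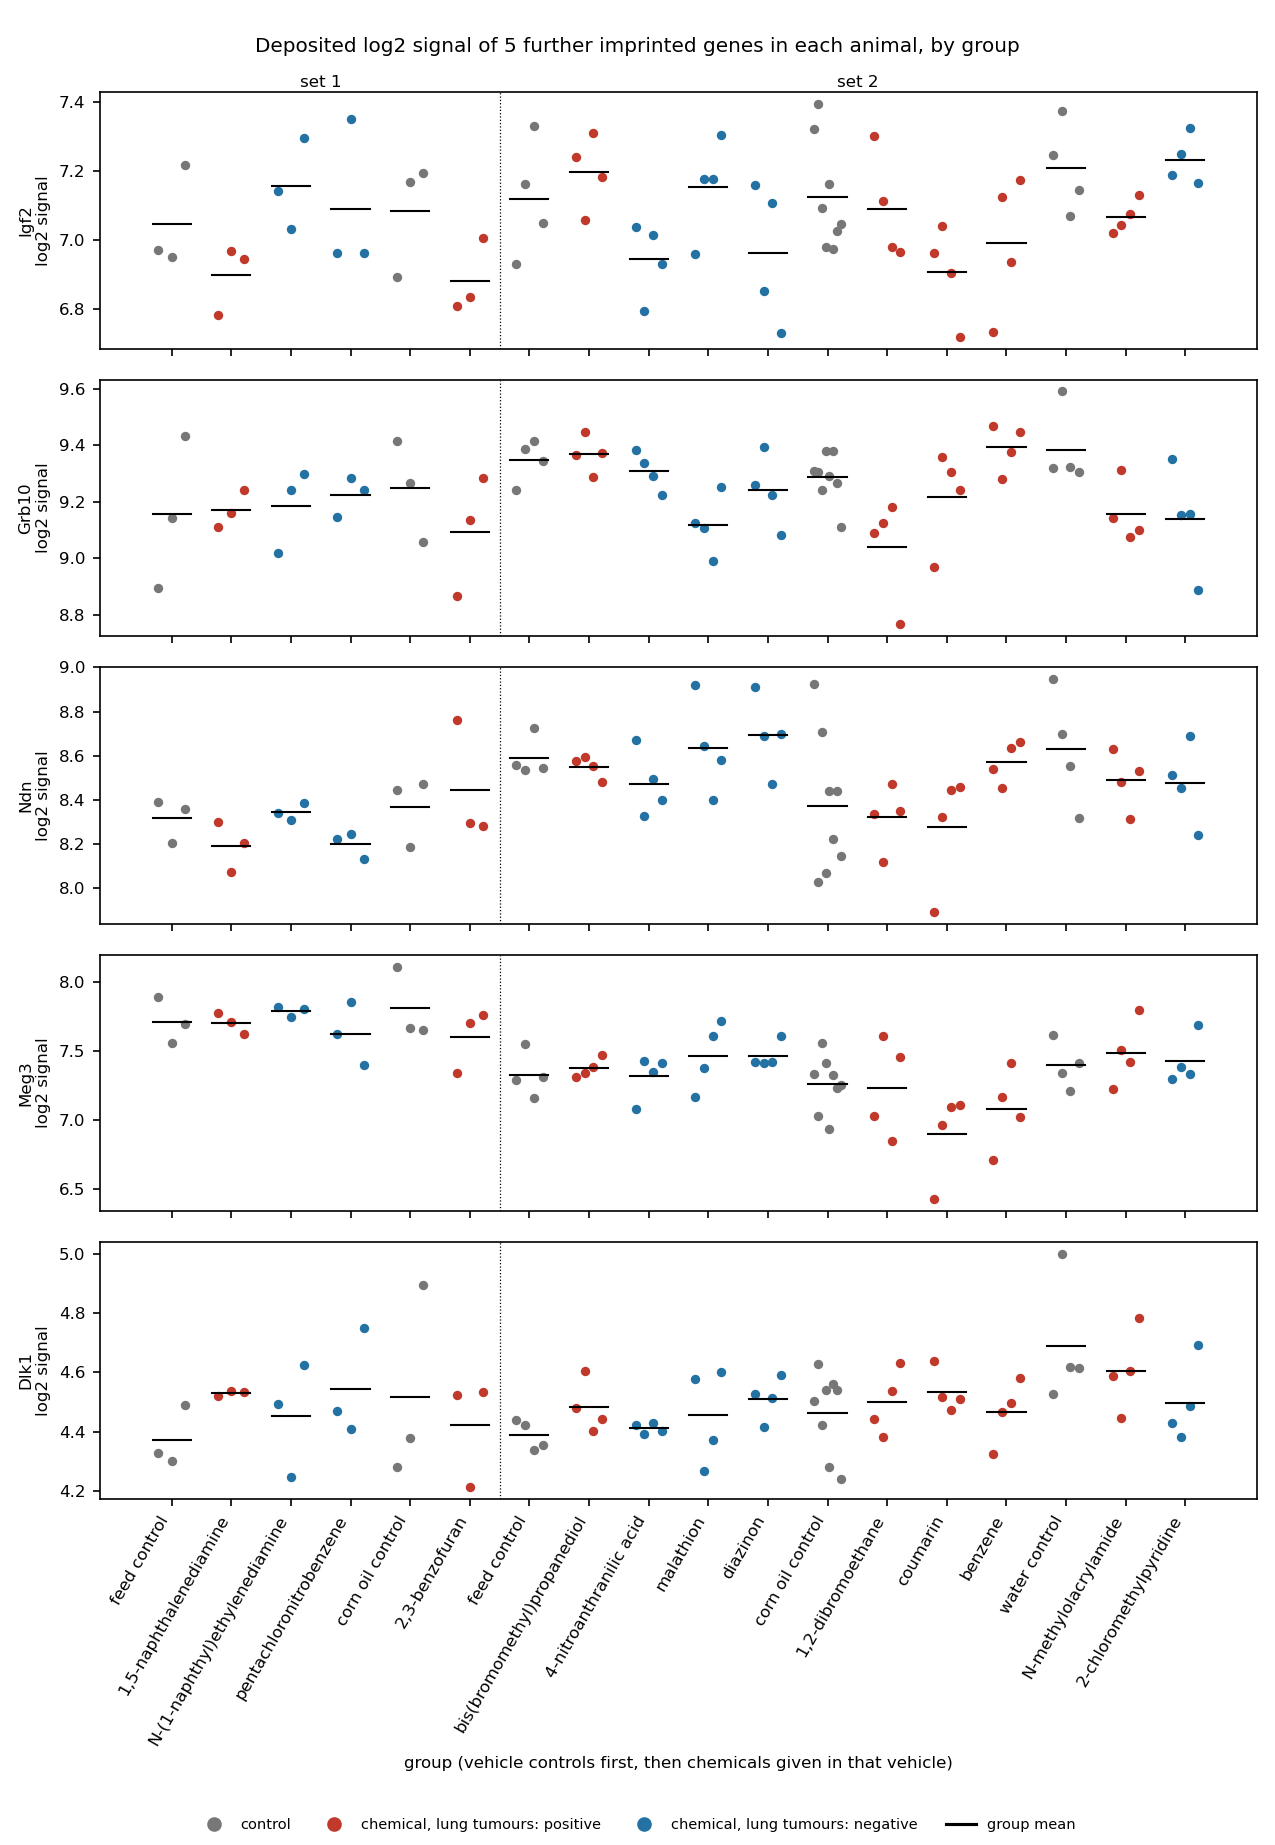
Log2 signal of Igf2, Grb10, Ndn, Meg3 and Dlk1 (one panel each, vertical axis) in each of the 70 animals (dots), by group (horizontal axis), with group means as bars and the same colours. Igf2 stays between 6.72 and 7.40, Meg3 is lower in set 2 and lowest with coumarin, and Dlk1 stays at or below 5.00.

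The remaining chemical comparisons gave no call among the 8 genes. That was so for 1,5-naphthalenediamine (1 of 8 at an unadjusted p under 0.05), N-(1-naphthyl)ethylenediamine (0.00785% of genes called; none of 8, and 989 genes unadjusted), pentachloronitrobenzene (0.00785%; none of 8, and 306 genes), 2,3-benzofuran (5.03%; none of 8, and 2375 genes), 4-nitroanthranilic acid (0%; none of 8, and 219 genes), 1,2-dibromoethane (4.59%; 1 of 8) and coumarin (4 of 8). Corn oil and feed controls did not differ in any of the 8 at the threshold, in set 1 (0%; none of 8 unadjusted) or in set 2 (4.41%; 1 of 8 unadjusted, Peg3 at -0.69 ± 0.23, adjusted p = 0.0654). The difference between those vehicle effects was called for none of the 8 and for 0% of genes (673 unadjusted). Of all genes, 1202 had an unadjusted p under 0.05 with 1,5-naphthalenediamine, 2625 with 1,2-dibromoethane and 2193 with coumarin. In all, 4 of 104 tests of a gene against a chemical passed, where the share of all genes called ran from 0% to 21.8% by chemical.

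None of these genes passed a test between chemicals positive and negative for lung tumours. With the chemical as the unit (7 against 6), the mean change of Plagl1 was 0.18 in the positive and 0.12 in the negative chemicals (difference 0.07 ± 0.31, adjusted p = 0.967), and that of Mest 0.10 and 0.06 (difference 0.04 ± 0.13, adjusted p = 0.951). The lowest adjusted p was 0.776 for Meg3 (difference -0.14 ± 0.08). None of 12735 genes passed (0%), with 865 at an unadjusted p under 0.05 and none of the 8.

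Within groups, where treatment and set are removed, Plagl1 and Cdkn1c still ran in opposite directions. Over the deviations of 70 animals from their group means, r was -0.62 between Plagl1 and Cdkn1c, -0.52 between Plagl1 and Ndn, -0.47 between Plagl1 and Igf2 and 0.41 between Plagl1 and Peg3. Cdkn1c correlated with Igf2 at 0.53 and with Grb10 at 0.48. Mest stood apart, with its largest absolute r at -0.35, against Igf2. These are descriptions over points that share array and hybridisation. The same genes followed the leading within-group axis, with r of -0.84 for Plagl1, -0.68 for Peg3, 0.63 for Cdkn1c, 0.54 for Ndn, 0.51 for Igf2 and -0.05 for Mest. The RNA integrity number, given for 57 animals, correlated with Plagl1 at 0.14 within groups, and the difference between 3' and 5' control probe sets at -0.23.

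**Figure D5:**
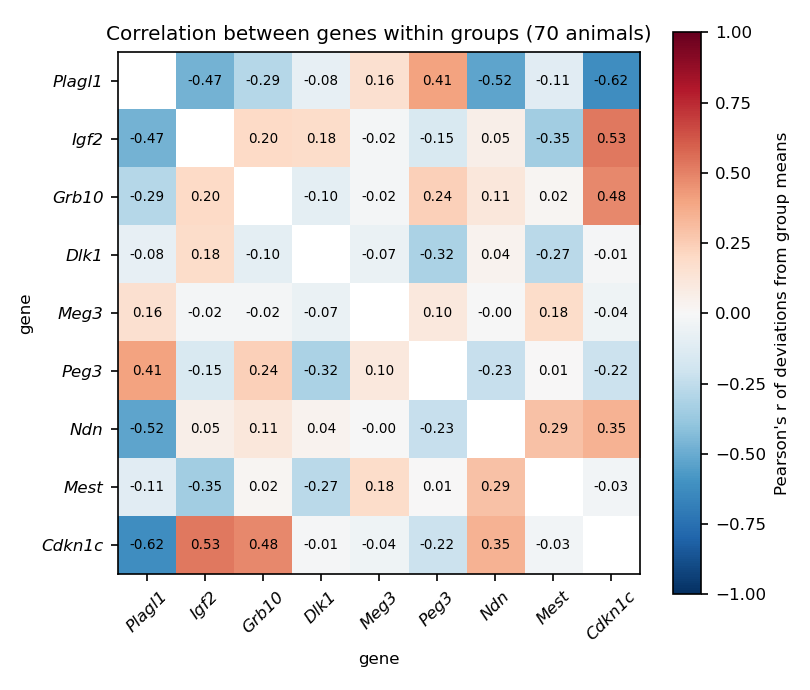
Pearson's r of the deviations from group means between 9 genes over 70 animals (rows and columns are genes, colour runs from -1 to 1, the diagonal is left empty). Plagl1 is negative with Cdkn1c (-0.62), Ndn (-0.52) and Igf2 (-0.47) and positive with Peg3 (0.41).

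The genes whose deviations were most like those of Plagl1 were Slc6a14 (r = 0.92), Srsf11 (0.91), Tmem30a (0.91), Yipf6 (0.90) and Tmx3 (0.90). Over the 18 group means they were Cavin2 (0.98), 2610005L07Rik (0.98), Cdh11 (0.98), Magi3 (0.98) and Cav2 (0.98). For Peg3 the nearest genes within groups were Rc3h1 and Rock1 (both 0.82), for Cdkn1c Klhl21 and Ppm1f (both 0.78), for Ndn Det1 (0.84) and P3h4 (0.83), and for Grb10 Foxo3 (0.70) and Sh3pxd2a (0.68). Mest was nearest to Cmpk2 (0.66) and Tnfaip3 (0.64), Igf2 to Abcf2 (0.66) and Flot1 (0.62), and Meg3 to the red cell genes Hbb-b2 and Alas2 (both 0.47). Among marker lists, the median r with Cdkn1c was 0.56 for endothelial genes, against 0.12 for all genes tested. With Plagl1 the median was 0.33 for club cell genes and 0.30 for ciliated cell genes, against -0.21 for all genes. It was -0.42 for smooth muscle and pericyte genes and -0.35 for endothelial genes.

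Other imprinted genes, 36 tested of 60 listed, had calls in the same comparisons. With N-methylolacrylamide 5 rose and 3 fell, a share near the 21.8% of all genes called, and their median change of 0.01 stood beside -0.10 for all genes. The ubiquitin ligase gene Ube3a rose by 1.35 ± 0.32 (adjusted p = 0.0037), Casd1 by 0.93 ± 0.21, Ppp1r9a by 0.74 ± 0.18 and Impact by 0.68 ± 0.23. Between water and feed controls 4 rose and 7 fell, a smaller share than the 37% of all genes, among them Ube3a (-1.47 ± 0.32) and Casd1 (-0.95 ± 0.21). Between corn oil controls of the sets 10 were higher and 7 lower in set 2, where 60.5% of all genes were called, with Ube3a at -2.19 ± 0.31, Dcn at -0.99 ± 0.30 and the neuronatin gene Nnat at 0.93 ± 0.17. Coumarin raised 3 (Slc22a18 by 0.60 ± 0.13, Pon3 by 0.56 ± 0.11 and Copg2 by 0.47 ± 0.12), 2,3-benzofuran raised 2 (Phlda2 by 0.66 ± 0.17 and Slc22a18 by 0.55 ± 0.17), malathion lowered Tfpi2 (-0.68 ± 0.20) and 1,2-dibromoethane lowered Gnas (-0.23 ± 0.06). Of all genes, 4.68% were called with coumarin, 5.03% with 2,3-benzofuran, 2.66% with malathion and 4.59% with 1,2-dibromoethane. With benzene none of the 36 was called. Copg2 lies beside Mest.

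In the insulin-like growth factor axis, the shares of genes called were no larger than over all genes in the comparisons of the next sentence. Over all genes those shares were 21.8% with N-methylolacrylamide, 37% between water and feed controls and 60.5% between corn oil controls of the sets. With N-methylolacrylamide 4 of 21 tested genes rose and none fell: the growth factor Igf1 (1.05 ± 0.32, adjusted p = 0.0173), the insulin receptor Insr (0.83 ± 0.22), the receptor Igf1r (0.58 ± 0.16) and the adaptor Irs1 (0.43 ± 0.15). Water against feed controls had 4 higher and 3 lower, with Insr at -1.07 ± 0.22 and Igf1 at -1.02 ± 0.32. Between corn oil controls of the sets 5 were higher and 5 lower, with Igf1 at -1.73 ± 0.31 and Insr at -1.10 ± 0.21. The first and second of these comparisons share the water controls. Coumarin lowered the binding protein Igfbp7 (-0.34 ± 0.07) and raised Stc2 (0.43 ± 0.12). With 1,2-dibromoethane Igfbp7 fell (-0.30 ± 0.07) and Igf1r rose (0.46 ± 0.14). Corn oil controls exceeded feed controls of set 2 in Igfbp4 (0.36 ± 0.10) and Igfbp7 (0.23 ± 0.07). Each of these 3 comparisons thus had 2 of the 21 called. That share was larger than the 4.68%, 4.59% and 4.41% of all genes called there, but rests on 2 genes each.

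Of 9 tested genes of the PLAG family and reported Plagl1 targets, 1 was lower with N-methylolacrylamide, the kinase inhibitor gene Cdkn1a (-0.83 ± 0.31, adjusted p = 0.0443), which also made up the 1 of 5 other kinase inhibitors. Between corn oil controls of the sets, where 60.5% of all genes were called, 4 of the 9 were higher and 1 lower. Cdkn1a changed by 1.25 ± 0.29, Socs3 by 0.96 ± 0.25 and Tcf4 by -0.97 ± 0.17. Of 12 Notch pathway genes, 6 rose and none fell between water and feed controls, where 37% of all genes were called, among them Dll4 (0.78 ± 0.17) and Notch3 (0.70 ± 0.18). Coumarin lowered 2 of the 12 (Heyl, -0.62 ± 0.16, and Notch4, -0.45 ± 0.12), where 4.68% of all genes were called. Of 10 tested proliferation genes 2 rose with N-methylolacrylamide, Top2a (0.95 ± 0.28) and Mki67 (0.78 ± 0.28), a share near the 21.8% of all genes. Of 11 genes induced by glucocorticoids 1 fell there, Sgk1 (-0.38 ± 0.13), and 6 were higher and 1 lower in set 2 between corn oil controls.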

How the data were processed

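Right lung lobe RNA of 70 mice was hybridised to 1 array each. The authors deposited log2 probe set signals for 45101 probe sets, between 2.47 and 14.5, with array medians of 5.41 to 5.52. The summarisation and normalisation behind them are not given in the sources used here. Probe sets carry gene symbols from the platform annotation: 34945 have 1 symbol, 932 several and 9160 none, and 64 are controls. For each of 18193 genes the probe set with the highest mean was kept, and 12735 genes had a mean above the 30th percentile (4.98).

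One mean per group was fitted with limma 3.58.1 in R 4.3.3 (lmFit and eBayes) over all 70 arrays, which share 1 estimate of the spread. Adjusted p-values are Benjamini-Hochberg values over the 12735 genes, and called means under 0.05. Groups follow the chemical and set in the labels. The fit was tested on simulated data. The number of arrays per group limits the precision. No 2 arrays held identical values (highest correlation 0.997).

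The genes and all lists were chosen with earlier results of these data known. Text names each listed gene wherever it was called or its groups did not overlap, up to 4 called genes of a pathway list per comparison by size of change (fewer are given here), and for likeness 5 genes for Plagl1 and 2 for each other gene. Promoter windows and symbols come from RefSeq tables (GRCm38.p6). Alternatives covered filter, probe set rule, normalisation, weights, spread, samples, core amount, RNA integrity, 3' to 5' difference and single animals, plus the within-group axis, added after seeing the data.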

Additional observations from a re-analysis of the deposited data

Results flagged for a closer look

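In 108 sets of values (a gene in a group of 4 to 10 animals), 7 had 1 animal whose distance to its nearest neighbour was a large share of the group's range (Dixon's criterion at 95%). Chance flags about 1 in 20 such sets. Animal 2-119 of the 2-chloromethylpyridine group had a Plagl1 level of 10.25, above the other 3, and a Cdkn1c level of 8.21, below the other 3. Animal 2-75 of the coumarin group had the lowest Plagl1 level there, 9.38, and animal 2-90 of the benzene group the highest Cdkn1c level there, 9.07. The others were a Meg3 level of 7.61 in diazinon animal 2-28, a Grb10 level of 9.59 in water control 2-124 and an Ndn level of 8.72 in feed control 2-44. Each of these animals stayed in all comparisons, and none of these values was explained.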

How the results depend on the processing

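Array numbers of 3 to 8 per group and an unexplained set number limit these results. Of 509 alternative counts of called genes, 437 lay within 1.5 times the main count. For the 15 calls of a gene in a comparison, 311 alternative values gave 237 that stayed under the threshold, 71 that lost it and 3 that changed sign. All 3 came from the within-group axis as a covariate, a setting chosen after seeing the data: Plagl1 changed by 0.39 between corn oil controls of the sets and by 0.13 between water and feed controls, and Peg3 by 0.11 between corn oil controls of the sets. That axis is computed from the same arrays and takes with it what the genes share. Under it the count of called genes was 0 for N-methylolacrylamide, malathion, water against feed controls, corn oil against water controls and both comparisons of the sets, and 1 for coumarin and for corn oil against feed controls in set 2. Array weights gave 1 for 1,5-naphthalenediamine, diazinon and corn oil against feed controls in set 2, 2 for 2,2-bis(bromomethyl)-1,3-propanediol, 3 for malathion, 4 for N-methylolacrylamide, 5 between feed controls of the sets and 7 in the F test. Controls pooled over the sets gave 1 for 1,5-naphthalenediamine, 2,3-benzofuran and N-methylolacrylamide and 2 for 2,2-bis(bromomethyl)-1,3-propanediol and coumarin. The RNA integrity number as a covariate gave 0 for benzene, malathion and feed controls of the sets. Only the arrays compared gave 0 for benzene and corn oil against water controls, 1 for N-methylolacrylamide and 4 between feed controls of the sets. Quantile normalisation over again gave 0 for benzene. No filter gave 0 for malathion and 1 between feed controls of the sets, and a filter at the 50th percentile 0 for malathion and 1 between water and feed controls. The mean over all probe sets gave 0 for malathion and 1 in the F test, and the core amount as a block 0 for malathion. Without each animal in turn, counts ran from 0 to 1 for benzene, malathion, coumarin, 1,2-dibromoethane and corn oil against feed controls in set 2, from 1 to 2 for N-methylolacrylamide and between feed controls of the sets, from 1 to 3 between water and feed controls and in the F test, and from 1 to 4 between corn oil and water controls. Between water and feed controls the Plagl1 call was lost without water control 2-124 (-0.97) or feed control 2-42 (-0.81). The largest median change of all genes was 0.20 after quantile normalisation and 0.17 as deposited, both between corn oil controls of the sets. The other alternatives gave the main counts or counts within 1.5 times of them, and the causes of the changes listed were not tested. No paired analysis was possible because the replicate numbers name animals and no number is shared between groups.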
